A study of Mus musculus with 10 samples.

Results

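Neutrophil and granule genes are a set of 10 genes out of 55385 in the deposited count table, taken by symbol: S100a8, S100a9, Csf3r, Csf3, Retnlg, Ly6g, Trem1, Clec4e, Camp and Ngp. Each symbol matched 1 row, and all 10 are annotated as protein coding. They were measured by RNA sequencing in 10 samples of a mouse line from an ovarian tumour, mutant for Arid1a and Pik3ca, whose name is APV245 in the titles of the samples but APC245 in the text on the design. Of these, 5 carried a lentiviral shRNA against Il6 (IL6 shRNA1, genotype label IL6 knockdown) and 5 a non-mammalian control shRNA in the pLKO.1-puro vector (genotype label WT), with no other treatment. The labels describe cultured cells, whereas the design text describes tumours grown under the skin. No source used here gives the age, strain or immune status of a host. One line and 1 shRNA were compared, and nothing in the labels says whether the 5 samples of a group came from separate animals or cultures, so p-values measure the spread between these samples.

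Neutrophils are short-lived granulocytes released from the bone marrow under the control of the cytokine G-CSF, encoded by Csf3, which acts through the receptor encoded by Csf3r. They load their granules in the marrow, so transcripts of many granule proteins are abundant in precursors and low in mature cells, while S100a8 and S100a9, the subunits of calprotectin, stay abundant in mature neutrophils. S100a8 and S100a9 are also made by monocytes and by stressed epithelia such as keratinocytes. In tumours, neutrophils and their immature relatives can limit or promote growth, and IL-6 family cytokines are among the signals that act on granulocyte production.

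None of the 10 genes was called different between the groups. Calls were made with edgeR's quasi-likelihood test, at a Benjamini-Hochberg adjusted p under 0.05 over 15064 genes, of which 11.8% were called (5.62% higher and 6.16% lower under IL6 shRNA1). Of the 10 genes, 5 had enough counts to be tested (S100a8, S100a9, Csf3r, Trem1 and Clec4e), and 0 of the 5 had an unadjusted p under 0.05. DESeq2 and limma voom on the same genes also called 0. The 5 log2 fold changes were all above 0, as were those of 47.9% of all genes tested, and nothing is read from that count, since the 5 genes share their libraries. The other 5 (Csf3, Retnlg, Ly6g, Camp and Ngp) fell below the filter on low counts and are described by their counts. The groups overlapped for all 10 genes, whereas 10.9% of all tested genes had groups that did not overlap. The libraries held 17905397 to 19934278 counts under IL6 shRNA1 and 18224751 to 22682346 under control. Intervals and limits given here for counts cover counting error only.

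A reduction of Il6, the targeted gene, was not seen in the IL6 shRNA1 libraries. Il6 stood at 1.73 ± 0.41 CPM (counts relative to the scaled library size) against 1.26 ± 0.64 in control (SD, n = 5 each; edgeR adjusted p = 0.44). It had 9 to 48 counts per library, and the interval of its log2 fold change, -0.355 to 1.243, included reductions. These bulk values do not separate Il6 of cells with the shRNA from that of other cells. They thus check neither the labels nor the knockdown. IL6 shRNA1 below therefore means the libraries labelled so, and each direction rests on that label. Of the markers that defined other cell types, the summed CPM of 8 pan-leukocyte genes was 618 to 1083 under IL6 shRNA1 and 306 to 793 under control. The sum of 14 monocyte and macrophage genes was 1285 to 2505 against 547 to 1451. The sum of 8 epithelial and Mullerian genes was 309 to 350 against 130 to 325, with Wt1, Krt8 and Upk3b counted in all libraries and Pax8 at 0 to 2 counts. IL6 shRNA1 library 5 stood apart by a sum of 1038 CPM for 10 keratinocyte genes, against 86.6 to 120 in the other 4 of its group. Control libraries 2 and 5 had the lowest pan-leukocyte sums, 306 and 382 CPM. In these lists 2 of 8 pan-leukocyte, 8 of 14 macrophage, 1 of 5 tested keratinocyte and 1 of 7 tested epithelial genes were higher, none was lower, and 0 of 2 eosinophil, 5 mast cell and basophil, 2 erythroid and 5 T, NK and B cell genes tested were called by edgeR (0, 0, 0 and 2 at an unadjusted p under 0.05; 0 of each by DESeq2). Over all genes edgeR called 11.8%. DESeq2, which called 20.1% of all genes, called 8 of 8 pan-leukocyte and 10 of 14 macrophage genes, and limma voom, which called 12.4%, called 5 and 8. A fit with a replicate block, which called 5.01%, called 0 and 0, with medians of 0.96 and 1.24. All 8 pan-leukocyte genes had an unadjusted p under 0.05 in edgeR. Without IL6 shRNA1 library 5, edgeR called 6.5% of all genes and 0 in these 4 lists, while the median log2 fold change went from 0.88 to 0.83 for pan-leukocyte, from 1.12 to 0.96 for macrophage, from 0.52 to 0.44 for epithelial and from 3.95 to 0.68 for keratinocyte genes. Without that library and control libraries 2 and 5, it called 1.38% of all genes, and the pan-leukocyte and macrophage medians were 0.56 and 0.63. These 3 libraries lay at the ends of the first principal component, the axis along which the libraries differed most (57.3, -54.8 and -54.2). Each lay on its own group's side. Omitting them thus draws the groups together along that axis. Smaller fold changes or fewer calls without them are therefore no independent check, here or below. Less RNA of a gene in such bulk samples cannot be told apart from fewer cells that carry it.

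The promoters of 4 genes are shown, the calprotectin pair because its members varied together across libraries, and Retnlg and Ngp because the ratios of their mean levels between the groups were the largest. RefSeq promoter entries (GRCm38.p6) matched 9 of the 10 genes. The windows are the 250 bases before the RefSeq start. They run 93 bases into the gene as GENCODE M21 annotates it for S100a8 and 61 bases for Ngp, since the start sites of the annotations differ, and the sequences here stop before the GENCODE gene, 5′ to 3′ on the gene's strand. Capitals mark matches on either strand to TTGCNNAA, a core of the motif bound by C/EBP factors, or to GAGGAA, a core bound by the myeloid factor PU.1.
S100a8: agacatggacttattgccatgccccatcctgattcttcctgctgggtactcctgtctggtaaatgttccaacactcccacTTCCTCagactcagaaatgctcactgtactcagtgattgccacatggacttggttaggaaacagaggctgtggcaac
S100a9: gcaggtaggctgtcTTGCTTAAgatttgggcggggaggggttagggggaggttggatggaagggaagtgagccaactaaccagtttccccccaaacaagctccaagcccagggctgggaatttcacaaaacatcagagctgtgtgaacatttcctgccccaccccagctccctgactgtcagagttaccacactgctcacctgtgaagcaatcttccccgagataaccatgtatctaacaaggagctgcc
Retnlg: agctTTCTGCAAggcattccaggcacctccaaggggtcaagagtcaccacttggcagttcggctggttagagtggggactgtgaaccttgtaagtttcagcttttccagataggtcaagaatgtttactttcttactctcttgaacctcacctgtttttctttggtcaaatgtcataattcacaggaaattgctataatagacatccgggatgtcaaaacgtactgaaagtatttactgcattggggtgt
Ngp: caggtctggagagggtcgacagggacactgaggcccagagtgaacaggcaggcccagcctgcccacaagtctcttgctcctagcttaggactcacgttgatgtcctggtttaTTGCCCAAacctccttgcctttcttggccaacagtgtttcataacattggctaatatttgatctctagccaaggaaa
They lie at chr3:90668821-90668977 (plus strand) for S100a8, chr3:90695722-90695971 (minus strand) for S100a9, chr16:48872358-48872607 (plus strand) for Retnlg and chr9:110419558-110419746 (plus strand) for Ngp. Across all 32851 promoter entries of that length, 9.56% held TTGCNNAA and 23.3% held GAGGAA. Of the 9 genes, 5 held each in the whole window of any of their entries. A count of genes and a share of entries are unlike measures, since Ly6g had more than 1 entry. The only GAGGAA match of Csf3r, counted here, reached into the GENCODE gene. In the whole window S100a8 had 2 matches to GAGGAA, 1 of them reaching into the GENCODE gene, and 0 to TTGCNNAA, and S100a9 had 1 match to TTGCNNAA and 0 to GAGGAA. Ngp had 2 matches to TTGCNNAA, 1 of them likewise, and Retnlg had 1. A match describes the letters of this window only.

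S100a8 and S100a9 encode the calcium-binding subunits of calprotectin, and neither was called different between the groups. S100a8 (ENSMUSG00000056054.9; chromosome 3, 90668978 to 90670035, plus strand) stood at 5.51, 8.99, 6.17, 7.89 and 3.92 CPM in IL6 shRNA1 libraries 1 to 5 and at 8.19, 4.33, 5.41, 8.28 and 2.20 CPM in control libraries 1 to 5. Control library 5 was the lowest of the 10 and the groups overlapped over most of their range. The log2 fold change was 0.19 ± 0.34 (SE; 95% interval -0.56 to 0.94; edgeR adjusted p = 0.74), so changes from 0.678-fold to 1.92-fold lay inside the interval.

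S100a9 (ENSMUSG00000056071.12; chromosome 3, 90692632 to 90695721, minus strand) stood at 7.32, 10.2, 9.99, 7.40 and 4.61 CPM under IL6 shRNA1 and at 9.50, 4.63, 8.38, 8.85 and 3.08 CPM under control. The same libraries were low for both genes: IL6 shRNA1 library 5 and control libraries 2 and 5. The log2 fold change of S100a9 was 0.19 ± 0.32 (SE; 95% interval -0.50 to 0.89; edgeR adjusted p = 0.72). In the annotation 22596 bases separate the pair. There were 0.617 to 1.07 counts of S100a8 for each count of S100a9 in a library. Over the 10 libraries their log2 CPM rose and fell together (Pearson r = 0.916, permutation p = 0.00042; Spearman rho = 0.867, permutation p = 0.0023), and r was 0.728 without the 2 libraries farthest from the median of S100a9. This was 1 of 6 relations computed, with Benjamini-Hochberg adjusted permutation p-values of 0.0013 and 0.0069. In FPKM, which divides counts by gene length and library total, S100a9 was the highest of the 10 genes, at 15.2 ± 4.7 against 13.4 ± 6.0 FPKM (SD, n = 5), followed by S100a8 at 9.43 ± 3.14 against 8.30 ± 4.02 FPKM. S100a8 and Csf3r, next in that order, did not differ beyond their spread.

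Csf3r encodes the G-CSF receptor, which is carried by neutrophils and their precursors and at lower levels by monocytes. It gave the most counts of the set, 178 to 871 per library. Csf3r (ENSMUSG00000028859.14; chromosome 4, 126024550 to 126044440, plus strand) stood at 21.4, 36.3, 33.0, 31.4 and 30.3 CPM under IL6 shRNA1 and at 37.0, 11.3, 26.6, 27.8 and 10.6 CPM under control. Control library 1 was the highest of all 10 libraries, and control libraries 2 and 5 were the lowest. The log2 fold change was 0.43 ± 0.33 (SE; 95% interval -0.32 to 1.17; edgeR adjusted p = 0.42). Without IL6 shRNA1 library 5 and control libraries 2 and 5 it was 0.0032. The 3 libraries omitted are the 2 controls with the lowest pan-leukocyte sums and the IL6 shRNA1 library with the highest. The part of leukocyte content in this value was not tested. The spread within control was 3.50-fold from lowest to highest, and within IL6 shRNA1 it was 1.69-fold. On the FPKM scale Csf3r was at 8.50 ± 1.76 against 6.40 ± 3.44 (SD, n = 5).

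Csf3, the gene of the ligand G-CSF, was near the limit of detection. Csf3 (ENSMUSG00000038067.2; chromosome 11, 98701263 to 98703629) had 6, 12, 14, 4 and 2 counts in IL6 shRNA1 libraries 1 to 5 and 7, 0, 8, 9 and 1 counts in the control libraries. Counts were present in 9 of 10 libraries and the groups overlapped. At this depth a difference in Csf3 was not detectable (0.396 ± 0.276 against 0.233 ± 0.197 CPM; SD, n = 5; exact permutation p = 0.31, two-sided). In the list of 13 colony-stimulating factors and chemoattractants of neutrophils, 7 were tested and 0 were called by edgeR (1 at an unadjusted p under 0.05; 1 by DESeq2), with a median log2 fold change of 0.06 beside -0.01 over all genes tested. The chemokine gene Cxcl5, a ligand of CXCR2, was the most abundant of that list by FPKM, at 89.6 ± 15.2 against 86.1 ± 34.1 CPM (edgeR adjusted p = 0.91). Cxcl1, another CXCR2 ligand gene, was at 5.98 ± 0.80 against 6.24 ± 1.69 CPM (edgeR adjusted p = 0.86), and Il17a had no count in any library.

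**Figure D1:**
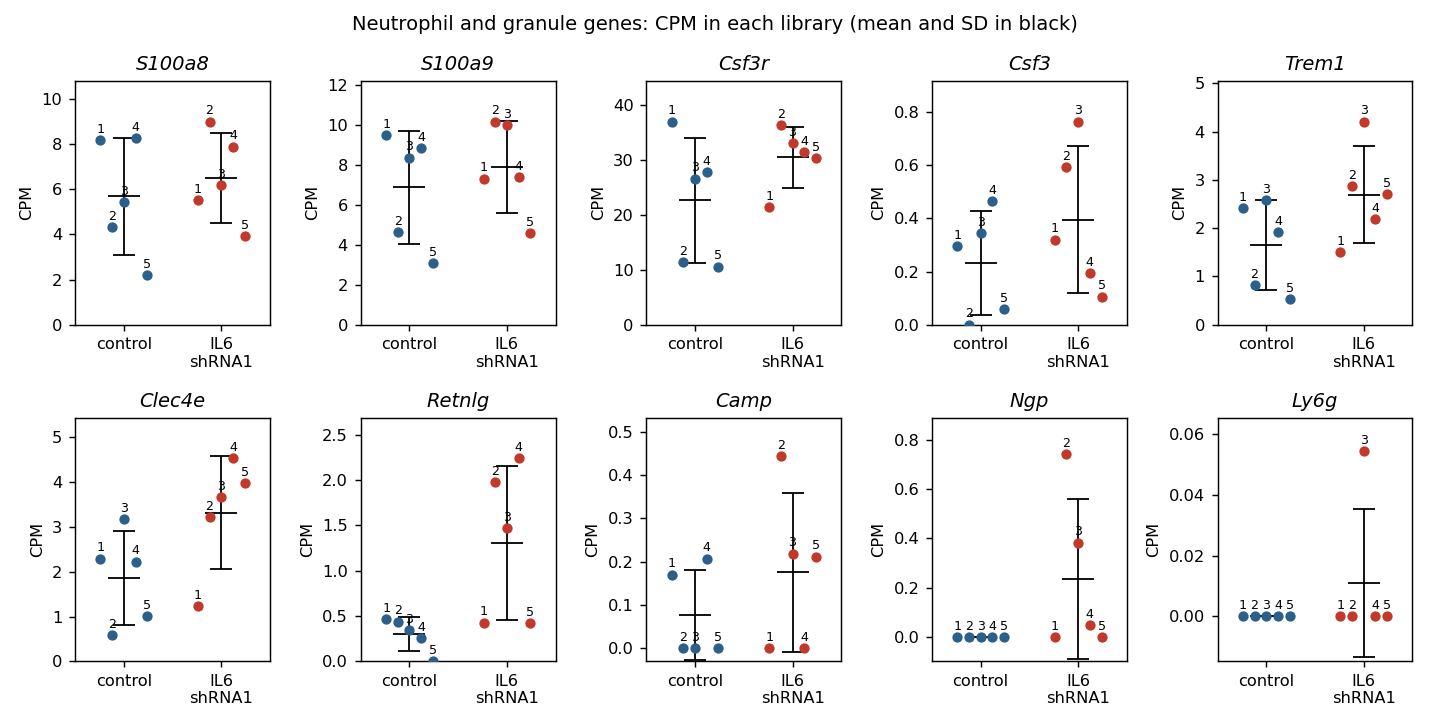
CPM of each of the 10 genes (vertical axes, linear, each panel with its own scale) in the 5 control libraries (blue) and the 5 IL6 shRNA1 libraries (red), numbered 1 to 5, with mean and SD in black. The groups overlap in every panel, and control libraries 2 and 5 are the lowest controls for S100a8, S100a9, Csf3r, Trem1 and Clec4e.

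Trem1 and Clec4e encode activating receptors of innate immune cells and had the largest fold changes of the 5 tested genes, but neither was called. Trem1, a receptor that amplifies inflammatory signalling in neutrophils and monocytes (ENSMUSG00000042265.13; chromosome 17, 48232768 to 48246924), stood at 1.496, 2.87, 4.20, 2.19 and 2.699 CPM under IL6 shRNA1 and at 2.42, 0.828, 2.58, 1.91 and 0.534 CPM under control. Only IL6 shRNA1 libraries 2, 3 and 5 lay above the highest control. The log2 fold change was 0.69 ± 0.42 (SE; 95% interval -0.23 to 1.61; edgeR adjusted p = 0.29), and it was 0.22 without IL6 shRNA1 library 5 and control libraries 2 and 5. A pseudogene on the opposite strand, Gm18679, lies within Trem1 and had 0 to 4 counts per library.

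Clec4e encodes Mincle, a C-type lectin that senses mycobacterial glycolipid and a protein of dead cells, and is expressed by macrophages as well as neutrophils. Clec4e (ENSMUSG00000030142.10; chromosome 6, 123281789 to 123289870) stood at 1.23, 3.21, 3.66, 4.53 and 3.97 CPM under IL6 shRNA1 and at 2.29, 0.584, 3.18, 2.22 and 1.01 CPM under control. IL6 shRNA1 libraries 2 to 5 lay above the highest control, and IL6 shRNA1 library 1 lay among the lower controls. The log2 fold change was 0.83 ± 0.45 (SE; 95% interval -0.15 to 1.81; edgeR adjusted p = 0.23), and it was 0.30 without IL6 shRNA1 library 5 and control libraries 2 and 5. Beside these receptors the pan-leukocyte sum was higher in 4 of 5 IL6 shRNA1 libraries than in any control, as was the macrophage sum, and their part in the result was not tested.

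Of 14 adaptors and relatives of TREM and CLEC4 receptors, 13 were tested, and 5 were higher and 0 lower, beside 11.8% of all genes called. The median log2 fold change was 0.77. The called genes were Trem2, Clec7a, Clec4n, Fcer1g and Tyrobp. Fcer1g, the signalling chain used by Mincle, rose from 44.0 ± 20.1 to 103 ± 24.2 CPM (SD, n = 5; log2 fold change 1.23 ± 0.32 SE; edgeR adjusted p = 0.037). Tyrobp, the DAP12 chain used by TREM1, rose from 42.7 ± 13.01 to 77.0 ± 20.6 CPM (edgeR adjusted p = 0.0496). Clec7a, the receptor Dectin-1, rose from 15.5 ± 6.03 to 35.7 ± 6.80 CPM (edgeR adjusted p = 0.022). Clec4d, which lies beside Clec4e in the lectin cluster, missed the threshold, at 5.15 ± 1.15 CPM under IL6 shRNA1 and 3.38 ± 1.33 under control (edgeR adjusted p = 0.17). Without IL6 shRNA1 library 5, Trem2, Clec7a and Clec4n were called and the list's median was 0.795. Without that library and control libraries 2 and 5, where 1.38% of all genes were called, 0 of 13 were, and the median was 0.51. With all libraries, DESeq2 called 7 of the 13, limma voom 6 and a fit with a replicate block 1. Those fits called 20.1%, 12.4% and 5.01% of all genes.

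Retnlg encodes resistin-like gamma, a secreted protein made mainly by granulocytes, and had the largest ratio of mean levels among the genes with counts in both groups. Retnlg (ENSMUSG00000022651.6; chromosome 16, 48872621 to 48874496) had 8, 40, 27, 46 and 8 counts in IL6 shRNA1 libraries 1 to 5 and 11, 9, 8, 5 and 0 counts in the control libraries. Libraries 2, 3 and 4 under IL6 shRNA1 lay above every control at 1.98, 1.47 and 2.24 CPM, while libraries 1 and 5, at 0.428 and 0.423 CPM, lay below control library 1 at 0.467 CPM. The means were 1.31 ± 0.851 against 0.301 ± 0.187 CPM (SD, n = 5 each), and an exact two-sided permutation test gave p = 0.0476 before any adjustment, for 1 of 10 genes so tested. Retnlg missed the filter in the fit of all 10 libraries. In an edgeR fit of all 29762 genes with a count, its log2 fold change was 2.09 ± 0.63 (SE; adjusted p = 0.091), in a fit that called 4.12% of genes. The adjusted p was 0.031 without IL6 shRNA1 library 1, 0.045 without IL6 shRNA1 library 5, and 0.036 without IL6 shRNA1 library 5 and control libraries 2 and 5. In the other 8 single-library omissions it was 0.077 to 0.19. The filtered fit without IL6 shRNA1 library 5 and control libraries 2 and 5 tested 6 of the 10 genes, against 5 with all libraries, and called 0.

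Camp and Ngp encode cathelicidin-family proteins of the secondary granules, and both were close to 0. Camp (ENSMUSG00000038357.10; chromosome 9, 109847379 to 109849617), the gene of the antimicrobial cathelicidin, had 0, 9, 4, 0 and 4 counts under IL6 shRNA1 and 4, 0, 0, 4 and 0 counts under control, an exact permutation p of 0.25. Ngp (ENSMUSG00000032484.8; chromosome 9, 110419747 to 110423012), the neutrophilic granule protein gene, had 0, 15, 7, 1 and 0 counts under IL6 shRNA1 and no count in the 5 control libraries. Against a limit of 3 counts over the control group (0.029 CPM over its summed libraries), the 23 counts of Ngp under IL6 shRNA1 (0.238 CPM over theirs) were 8.21-fold higher. This pooled figure takes the 23 counts as exact and is no limit on a difference between the groups. Libraries 2 and 3 held nearly all of those counts, and the exact permutation p of the CPM values was 0.17. The 2 libraries with the most Ngp counts were also the highest for S100a9. Camp had 9 and 4 counts there, and 4 each in IL6 shRNA1 library 5 and control libraries 1 and 4, which had no Ngp count. Ly6g, the surface antigen by which mouse neutrophils are usually sorted (ENSMUSG00000022582.4; chromosome 15, 75155240 to 75159126), had 1 count in all, in IL6 shRNA1 library 3. Ly6g belongs to a family of close paralogs, and no source used here says how reads that map to several genes were counted.

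The other granule genes are given by the class of granule. Of 7 primary granule genes, which neutrophil precursors transcribe, only Mpo, the myeloperoxidase gene, was tested, and it was not called, at 0.623 ± 0.230 against 0.900 ± 0.519 CPM (SD, n = 5; edgeR adjusted p = 0.43). Elane, the neutrophil elastase gene, had 0 to 2 counts per library, and Prtn3 had 4 to 16. Of 15 secondary and tertiary granule and oxidase genes, 10 were tested, and 4 were higher and 0 lower, beside 11.8% of all genes called. The median log2 fold change was 0.84. The 4 were Cyba, Cybb and Ncf4, which encode subunits of the phagocyte NADPH oxidase, and the lysozyme gene Lyz2. All of these are also expressed by macrophages. Cyba rose from 72.5 ± 18.8 to 147 ± 31.5 CPM (log2 fold change 1.02 ± 0.20 SE; edgeR adjusted p = 0.013), and Cybb from 76.8 ± 32.6 to 161 ± 40.0 CPM (edgeR adjusted p = 0.045). Some granule genes more restricted to granulocytes were low: Ltf, the lactoferrin gene, had 1 to 14 counts and Mmp8, the neutrophil collagenase gene, 0 to 8. Mmp9, also in this list, was abundant, with 1804 to 12151 counts per library. Its fold change was opposite in sign to those of the called genes, but it was not called. Mmp9 stood at 245 ± 142 CPM under IL6 shRNA1 and 446 ± 91.2 under control (log2 fold change -0.86 ± 0.39 SE; edgeR adjusted p = 0.17). Lcn2, the lipocalin gene, missed the threshold at 2.14 ± 1.31 CPM under IL6 shRNA1 and 1.09 ± 1.048 under control (edgeR adjusted p = 0.32). Without IL6 shRNA1 library 5 Cyba was the 1 gene called, beside 6.5% of all genes, and the list's median was 0.745. Without that library and control libraries 2 and 5, where 1.38% of all genes were called, 0 of 12 were, and the median was 0.37. With all libraries, DESeq2 and limma voom each called 6 of the 10, beside 20.1% and 12.4% of all genes. A fit with a replicate block called 1, beside 5.01%.

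Of 17 surface receptors and adhesion molecules found on neutrophils, 14 were tested, and 5 were higher and 0 lower, beside 11.8% of all genes called. The median log2 fold change was 0.94. The 5 were Fcgr3, Cd14, Itgam, Ptafr and Itgb2, which macrophages express as well. The macrophage sum moved with them, and its part in the result was not tested. Itgam, the CD11b integrin gene, rose from 9.48 ± 3.48 to 18.7 ± 4.90 CPM (log2 fold change 0.97 ± 0.27 SE; edgeR adjusted p = 0.043). Fcgr3, an Fc receptor gene, rose from 24.3 ± 11.3 to 61.4 ± 15.1 CPM (edgeR adjusted p = 0.03). Cxcr2, the chemokine receptor by which neutrophils are drawn into tissue, was at 5.38 ± 1.04 against 5.41 ± 2.22 CPM, with a log2 fold change of -0.01 ± 0.28 (SE; 95% interval -0.62 to 0.59; edgeR adjusted p = 0.98). Without IL6 shRNA1 library 5, where 6.5% of all genes were called, 0 of 15 tested were, and the list's median was 0.85. Without it and control libraries 2 and 5, where 1.38% of all genes were called, 0 of 15 were, and the median was 0.46. With all libraries, DESeq2 called 9 of the 14, limma voom 6 and a fit with a replicate block 0, beside 20.1%, 12.4% and 5.01% of all genes.

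Of 14 neutrophil enzymes and cytoplasmic genes, 13 were matched and 8 were tested. Of those, edgeR called 1 higher and 0 lower, near the 11.8% called over all genes, so nothing is read from this count. The gene was Anxa1, the annexin A1 gene (646 ± 112 against 403 ± 119 CPM; SD, n = 5; edgeR adjusted p = 0.046), which many cell types express. That call was lost without IL6 shRNA1 library 5, where 6.5% of all genes were called and the list's median went from 0.42 to 0.28. DESeq2 and limma voom called Anxa1 higher and also Ifitm1, an interferon-induced membrane protein gene, lower (6.51 ± 1.72 against 9.28 ± 0.81 CPM; edgeR adjusted p = 0.073). G0s2, a lipolysis inhibitor gene, stood at 3.45 ± 1.14 against 5.05 ± 0.28 CPM (log2 fold change -0.55; edgeR adjusted p = 0.13). Its groups did not overlap, as was so for 10.9% of all tested genes. Asprv1 and Stfa3, which keratinocytes also express, had 384 and 81 counts in IL6 shRNA1 library 5, the library with the high keratinocyte sum, and at most 28 and 1 in the others. S100a8 and S100a9 were lowest of their group in that library. Of 8 granulocyte transcription factors, 6 were tested and 1 was higher, beside 11.8% of all genes called. It was Cebpa (58.6 ± 14.7 against 27.1 ± 6.83 CPM; SD, n = 5; edgeR adjusted p = 0.014), which macrophages express too. Cebpa was also called without IL6 shRNA1 library 5, and was not called without that library and control libraries 2 and 5. Cebpe, the factor of late granulocyte maturation, had 0 to 10 counts per library. Of 10 calprotectin partners and S100 relatives, 0 were called by edgeR (3 at an unadjusted p under 0.05; 2 by DESeq2), with a median log2 fold change of -0.03.

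**Figure D2:**
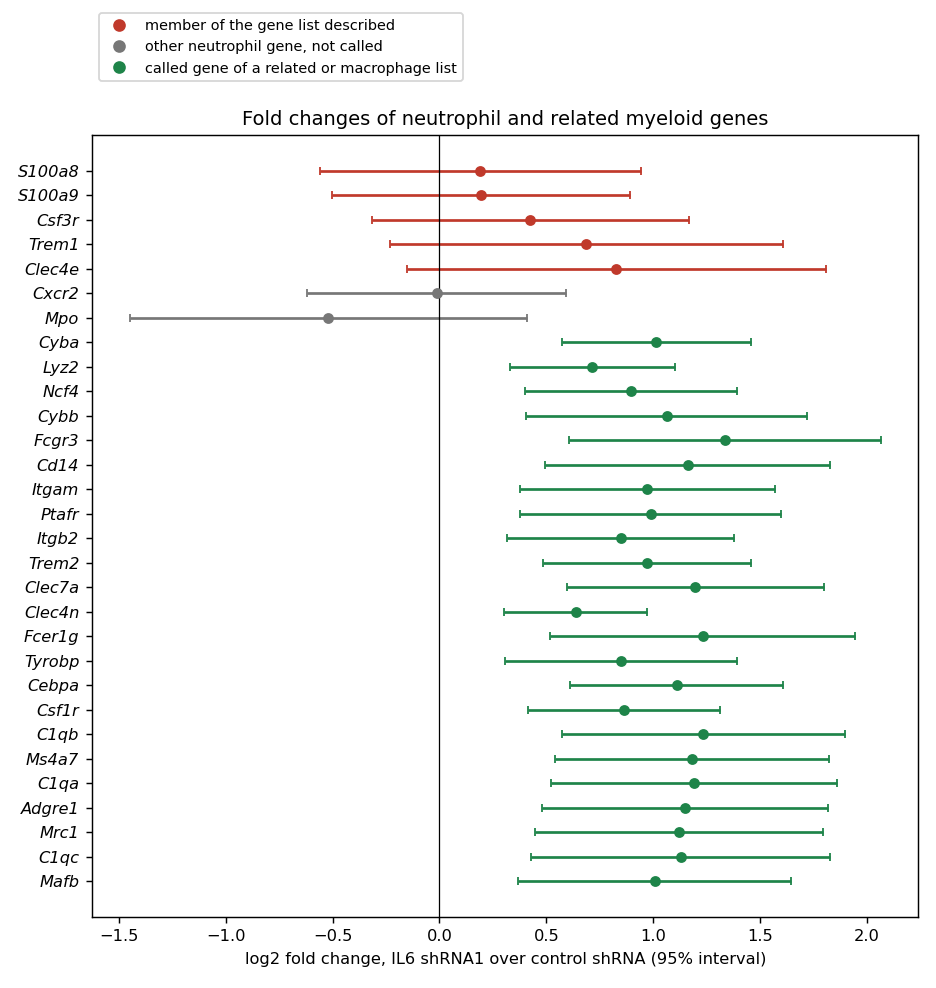
Log2 fold change of IL6 shRNA1 over control (horizontal axis) with its 95% interval for the 5 tested genes of the set (red), the neutrophil genes Cxcr2 and Mpo (grey) and the called genes of related and macrophage lists (green), which were drawn because they were called. The intervals of the 5 genes of the set, whose fold changes run from 0.19 to 0.83, and of Cxcr2 (-0.01) and Mpo (-0.52) include 0.

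Whether Csf3r and S100a9 moved less than a macrophage gene, Csf1r, and a pan-leukocyte gene, Ptprc, was tested on ratios within a library. Such ratios need no scaling between libraries. The 2 ratios were chosen after the values had been seen. Csf1r had itself been called higher (log2 fold change 0.86, edgeR adjusted p = 0.025), so the direction of its ratio was known beforehand. The log2 ratio of Csf3r to Csf1r, the receptor genes of granulocyte and macrophage growth factors, was -3.18 ± 0.20 under IL6 shRNA1 and -2.86 ± 0.38 under control (SD, n = 5 each), a difference of -0.32 (exact two-sided permutation p = 0.13 before and after adjustment over 2 ratios). It was -0.44 without control library 5 (exact permutation p = 0.0476) and -0.52 without IL6 shRNA1 library 5 and control libraries 2 and 5 (exact permutation p = 0.029, the smallest that the 35 splits of 4 against 3 allow). The log2 ratio of S100a9 to Ptprc, the pan-leukocyte CD45 gene, was -3.77 ± 0.70 against -3.06 ± 0.51 (difference -0.71; exact permutation p = 0.11, adjusted 0.13). IL6 shRNA1 library 5 had the lowest value of both ratios. A difference of Csf3r from Csf1r, or of S100a9 from Ptprc, was thus not shown by these ratios over all 10 libraries.

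**Figure D3:**
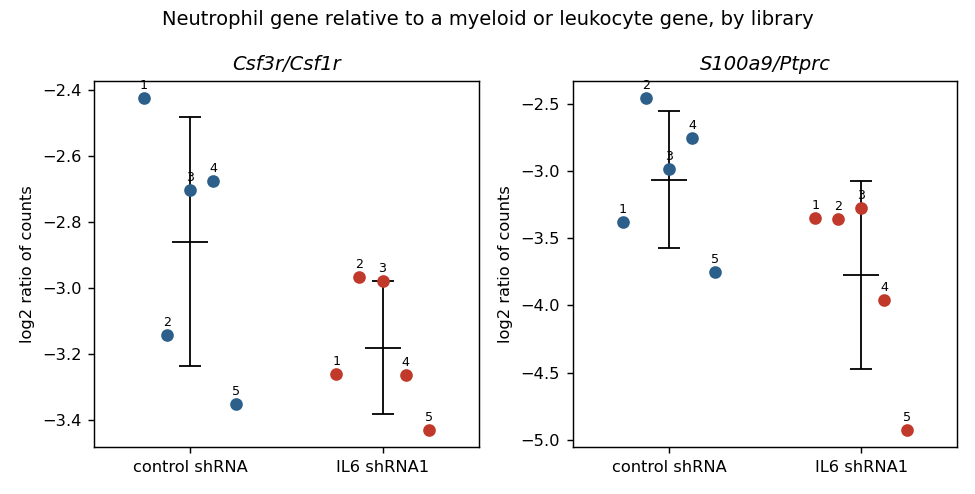
Log2 ratio of Csf3r to Csf1r (left) and of S100a9 to Ptprc (right) in each library, numbered 1 to 5, with mean and SD in black. The IL6 shRNA1 means lie lower, at -3.18 against -2.86 and at -3.77 against -3.06, and the groups overlap in both panels.

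Across the 10 libraries, S100a9 rose and fell with Cxcr2, and a relation with the leukocyte genes as a whole was not shown. Cxcr2 and the 6 relations were chosen after the values had been seen, which the adjustment over 6 does not cover. Genes outside the neutrophil lists, such as Pard6b and Prr15l, followed S100a9 at least as closely as Cxcr2 did, as given below. Log2 CPM of S100a9 and of Cxcr2 had Pearson r = 0.936 (permutation p = 6e-05, adjusted over the 6 relations 0.00036) and Spearman rho = 0.939 (permutation p = 0.00017, adjusted 0.001), with r = 0.958 without the 2 libraries farthest from the median of Cxcr2. S100a9 and the pan-leukocyte sum had r = 0.518 (permutation p = 0.13, adjusted 0.13) and rho = 0.297 (permutation p = 0.41, adjusted 0.41), and r was -0.278 without the 2 farthest libraries. Csf3r and the pan-leukocyte sum had r = 0.869 (permutation p = 0.0017, adjusted 0.0034) and rho = 0.709 (permutation p = 0.027, adjusted 0.037), and r = 0.589 without the 2 farthest. The difference between these correlations was not tested. S100a9 and the epithelial and Mullerian sum had r = 0.825 (permutation p = 0.0048, adjusted 0.0058) and rho = 0.745 (permutation p = 0.018, adjusted 0.036). That relation rests on 2 libraries, since r was 0.216 without them. The same held for Csf3r and the epithelial sum, with r = 0.878 (permutation p = 0.0038, adjusted 0.0057), rho = 0.697 (permutation p = 0.031, adjusted 0.037) and r = 0.259 without the 2. All 10 libraries carry the same batch label, and groups of 5 are too small for values within a group.

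**Figure D4:**
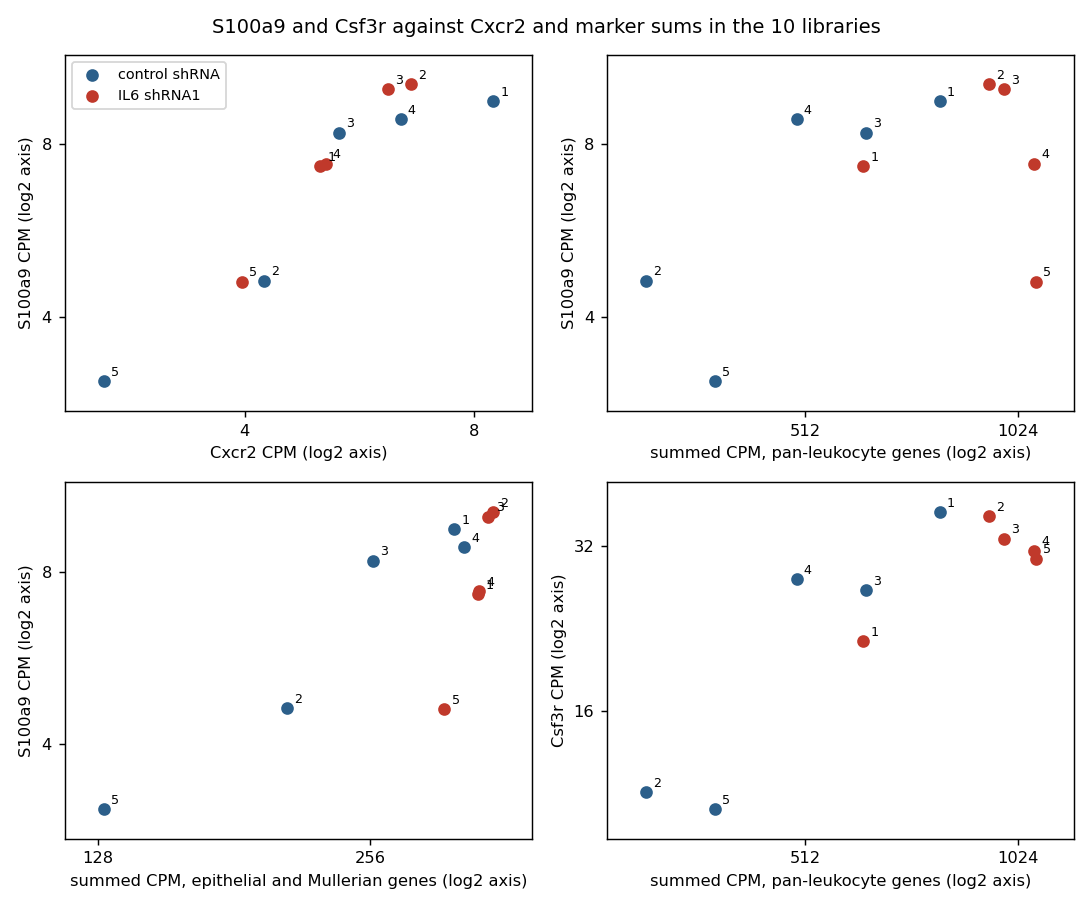
CPM of S100a9 against Cxcr2, the pan-leukocyte sum and the epithelial and Mullerian sum, and of Csf3r against the pan-leukocyte sum, in the 5 control (blue) and 5 IL6 shRNA1 (red) libraries, on log2 axes. S100a9 rises with Cxcr2 over the 10 libraries (r = 0.936), whereas IL6 shRNA1 library 5 combines the highest pan-leukocyte sum, 1083 CPM, with an S100a9 level of 4.61 CPM.

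In a search of 13836 tested genes at a mean CPM of 1 or more, those most like S100a9 by Pearson correlation of log2 CPM over the 10 libraries were Pard6b (r = 0.978), Prr15l (0.957), Slc25a28 (0.941), Wwc1 (0.938) and Rnf138 (0.937). Here 0.5 CPM was added before taking logs. On the same scale r with S100a9 was 0.912 for S100a8, 0.815 for Csf3r, 0.779 for Trem1 and 0.534 for Clec4e. The genes most like Csf3r were Lfng (0.956), 4732440D04Rik (0.954), Rcsd1 (0.953), Fgd3 (0.948) and Zc3h12a (0.947), and among the set Trem1 came nearest at 0.923. These values describe 10 libraries that share their depth and cell content, and carry no test.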

How the data were processed

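RNA from 10 samples was sequenced, 5 labelled IL6 shRNA1 and 5 labelled control shRNA. Per the submitters' processing notes, STAR 2.7.0f and featureCounts of Subread 1.6.4 were among the tools, beside Trim Galore 0.6.6, and the builds named are mm10 and GRCm38. No source used here gives the strand setting or annotation release, so reads of overlapping genes on opposite strands may not be separable. The deposited count table holds the authors' raw whole-number counts per gene. The deposited FPKM table holds the authors' FPKM values, which equalled count over gene length and column total (largest relative deviation 9.3e-08 over 13451 genes).

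These counts went into edgeR 4.0.16 (R 4.3.3): filterByExpr at its defaults (minimum count 10), TMM factors, robust quasi-likelihood fit on the group. SE is the fold change over the root of F. CPM uses the scaled library sizes. Exact permutation tests used all splits, 252 for 5 against 5 libraries (smallest p 0.0079), 126 for 5 against 4 and 35 for 4 against 3. Correlation tests used 100000 permutations. Alternatives were DESeq2 1.42.0, limma 3.58.1 with voom, other factors and filters, a replicate block, FPKM with pseudocounts 1 and 0.1, an adjusted p under 0.01 and omitted libraries. The fit was tested on simulated data. Counts of libraries in 1 group differed by far more than sampling noise (chi-square per gene 12.1 to 70.4 over 20 pairs).

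Genes named were all 10 of the set, Il6, up to 4 called genes with the smallest p and the most abundant gene of each of 16 related and marker lists, and the 5 genes most like S100a9 and Csf3r. Cxcr2, Mpo, Elane, Ltf, Mmp8, Mmp9, Lcn2, Clec4d, Cxcl1, Il17a, Asprv1, Stfa3, Cebpe, Ifitm1, G0s2, Pax8, Wt1, Ptprc, Gm18679 and Itgb2 were named after their values were seen. The genes of the set and the lists were chosen with earlier results of these data known.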

Additional observations from a re-analysis of the deposited data

Results flagged for a closer look

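A single library lay far from the other 4 of its group, by Dixon's criterion for 5 samples, in 2 of 50 groups examined, those of the 10 genes and of the sums over related and marker lists. Chance flags about 1 in 20 groups. Ly6g stood at 0.0546 CPM in IL6 shRNA1 library 3 and at 0 in the other 4, which is a single count. The summed CPM of 10 keratinocyte genes was 1040 in IL6 shRNA1 library 5, against 86.6 to 120 in the other 4.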

How the results depend on the processing

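None of the 10 genes was called in any of 21 other settings, and in the one without a filter all 10 were tested. The exceptions lie outside these, in the unfiltered fits with libraries omitted that called Retnlg, with adjusted p-values of 0.031 to 0.19 over single omissions. The sign of S100a8 turned to -0.03 without IL6 shRNA1 library 5 and control libraries 2 and 5, and that of S100a9 to -0.03. With 1 library omitted at a time, the log2 fold change of S100a8 ran from -0.01, without control library 5, to 0.37. That of S100a9 ran from 0.02 to 0.35, of Csf3r from 0.26 to 0.69, of Trem1 from 0.48 to 0.91 and of Clec4e from 0.61 to 1.12. The count over all genes, 1775, became 3027 with DESeq2, 755 with the replicate block, 212 without the 3 libraries named above and 381 at an adjusted p under 0.01. It ran from 864 to 2774 with 1 library omitted. The cause was not tested. Same-numbered samples did not pair (correlations of deviations -0.30 to 0.28, 1 of 5 matching its own number best), and with the block the 5 fold changes were 0.26 to 0.92 with none called. The ratios, the Retnlg fits with libraries omitted, the relations and the list counts under other settings were chosen after seeing the data. Csf3, Ly6g, Camp and Ngp lie near the limit of detection at this depth.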
